A study of Mus musculus with 90 samples.

Results

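Inguinal white fat (iWAT), a depot under the skin of the groin, of mice that lack both uncoupling protein 1 (UCP1) and fibroblast growth factor 21 (FGF21) was compared with that of wild-type mice. The libraries were chosen by their labels alone, 6 from double knockout mice (dKO) and 6 from wild-type mice (WT), 12 of the 90 RNA-seq libraries in the series, and all genes were examined. The dKO mice are homozygous for loss of both genes and the WT mice carry neither knockout. The 6 UCP1 KO and 5 FGF21 KO libraries of the depot, from mice homozygous for one knockout, entered the same model fit, and UCP1 KO also served as a second reference. All animals were males bred and raised at 30 °C. At 10 to 12 weeks of age they spent 12 days at 18 °C and then 3 weeks at 5 °C, and food was withdrawn for 2 to 3 hours before the tissues were taken. WT mice went through the same cold exposure, so the comparison is between genotypes in the cold and holds no warm group. The labels give neither the alleles nor the animal behind each library, and the p-values measure the spread between these libraries.

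UCP1 sits in the inner mitochondrial membrane of brown and beige adipocytes and lets protons flow back without making ATP, so that burnt fuel appears as heat. In the cold, noradrenaline from sympathetic nerves acts on adrenergic receptors of fat cells, raises cAMP, starts lipolysis and turns on the thermogenic genes, and inguinal fat gains cells with brown features, a change called browning. FGF21, an endocrine member of the FGF family, signals through FGF receptors with the co-receptor beta-Klotho and the ERK kinases. ATF4, a transcription factor of the stress response to amino acid lack and to mitochondrial faults, is known to turn on Fgf21. The comparison addresses how inguinal fat looks in the cold when the heat-producing carrier and this hormone are both missing.

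Total counts ran from 36.7 to 54.1 M (1 M is 1e+06 counts) in dKO libraries and from 36.4 to 48.8 M in WT libraries. Libraries of both genotypes differed in RNA of other tissues that lie in or beside the depot. The mean level of 17 lymphocyte genes, on the log2 scale of counts per 1e+06 counts (CPM), was between 4.78 and 5.58 in dKO replicates 3, 4 and 5 and between -0.54 and -0.28 in dKO replicates 1, 2 and 6. In WT it was between 4.88 and 6.50 in replicates 1 to 4 and 0.04 and -0.16 in replicates 5 and 6. The inguinal depot contains a lymph node. The summed level of these 17 genes ran from 17.4 to 1010 CPM in dKO and from 20.8 to 1890 CPM in WT. The mean level of 14 skeletal muscle genes stayed at or below 3.35 in dKO but was 4.52 in WT replicate 3 and 7.59 in WT replicate 4, where Myh4, a fast myosin chain, reached 4010 CPM against at most 60.3 CPM in dKO. The libraries of both groups held adipocyte RNA in plenty. Of 7 genes of adipocytes in general (Adipoq, Cd36, Cidec, Fabp4, Lipe, Plin1, Pparg) only Adipoq passed the test between the groups, and their summed level was 15400 to 23500 CPM in dKO and 10300 to 24700 CPM in WT. Counts of groups given here are followed, where they moved by over 1.5 times, by the count without the lymphocyte-high libraries (mean over 2; 3 of 6 dKO and 4 of 6 WT) or without the muscle-high ones (mean over 4; 0 of 6 dKO and 2 of 6 WT). Of the 7 adipocyte genes, Pparg passed as well without the lymphocyte-high libraries (log2 fold change 0.45, adjusted p 0.0399 in edgeR's quasi-likelihood test). In these bulk samples fewer cells of a type and less RNA per cell cannot be told apart.

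**Figure D1:**
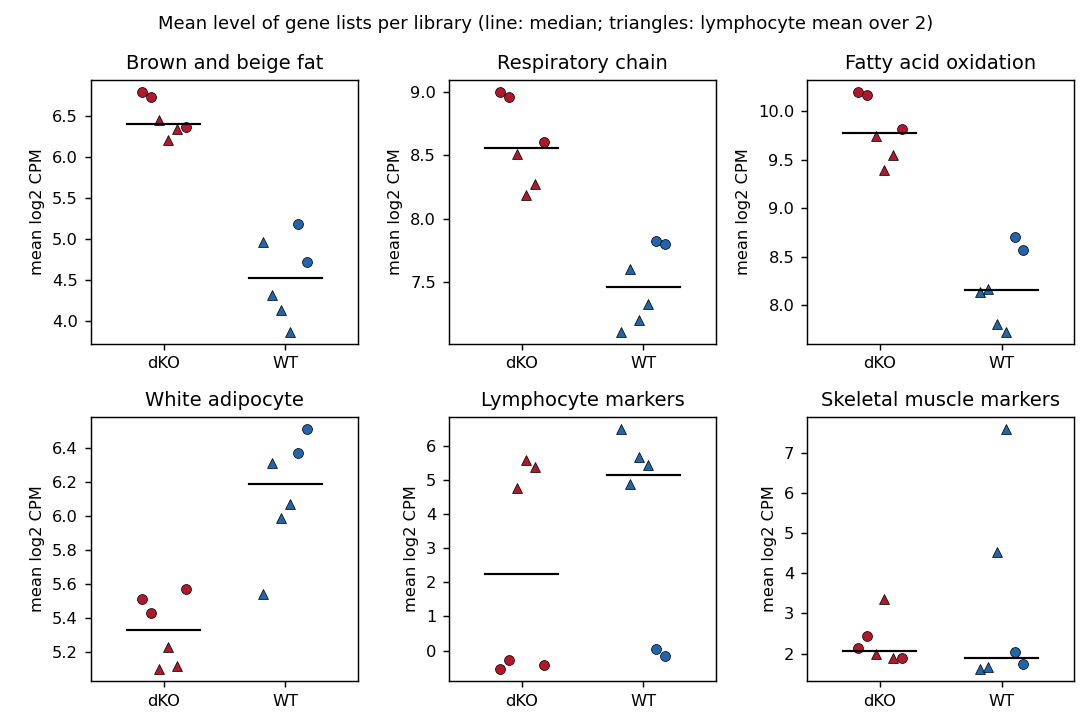
Mean log2 CPM of 6 gene lists in each of the 6 dKO and 6 WT libraries, with a line at the median of each group and triangles for libraries whose lymphocyte mean is over 2. The dKO libraries lie between 6.21 and 6.80 for brown and beige fat genes and the WT libraries between 3.87 and 5.18, whether or not lymphocyte genes are high.

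Fgf21 (chromosome 7, 45613890 to 45615490, GRCm38) was almost without reads in dKO, and Ucp1 (chromosome 8, 83290348 to 83298456) was not. The 6 dKO libraries held 4, 0, 1, 1, 2 and 2 counts of Fgf21, and the 6 WT libraries held 26, 17, 9, 18, 26 and 15. Every dKO library thus lay below every WT library, although WT levels were themselves low, at 0.17 to 0.525 CPM. On the log2 scale dKO differed from WT by -3.23 (SE 0.49), and edgeR's quasi-likelihood test gave an adjusted p of 2.61e-05. Reads assigned to Ucp1 were at 937, 1280 and 1800 CPM in dKO (lowest, median and highest of 6) and at 104, 404 and 1170 CPM in WT. The groups overlapped, and the log2 fold change of 1.37 (SE 0.63) had an adjusted p of 0.0931. That difference passed the threshold when only dKO and WT were fitted (1.38, adjusted p 0.0393) and without the muscle-high libraries (0.96, adjusted p 0.0324). It passed with the lymphocyte-high libraries alone (1.70, adjusted p 0.0434) and was furthest from the threshold without them (0.91, adjusted p 0.647). It also passed without WT replicate 5 (1.79, adjusted p 0.0377) and without FGF21 KO replicate 5 (1.36, adjusted p 0.00988), a library of the shared fit with 6.77 CPM at Ucp1. Gene-level counts cannot tell which exons of Ucp1 a transcript holds and so do not check the genotype label.

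The depot of dKO mice differed from that of WT mice in a large share of its genes. Of 16751 genes tested, 6192 passed an adjusted p of 0.05, which is 37%. Of all genes tested, 3181 (19%) rose and 3011 (18%) fell, and for 3122 (18.6%) no library of one group overlapped the other group. Among the genes called and changed over 2-fold, rises prevailed, with 1062 higher (6.34% of those tested) and 452 lower (2.7%). The median log2 fold change over all genes was -0.13. Counts of list members given below are to be read beside these shares of all genes. In what follows, levels are CPM, given as the lowest, median and highest of the 6 libraries of a group, and a value in parentheses with its SE is the log2 fold change of dKO over WT. Each adjusted p is that of edgeR's quasi-likelihood test with Benjamini-Hochberg adjustment, and rose and fell are used of genes that passed it.

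The largest rises were of genes close to silent in WT fat, which follows in part from how they were chosen. Genes were ranked by fold change among those whose dKO and WT libraries were fully apart, with a floor of 1 CPM on the mean level. For a gene that rose, that mean rests mostly on dKO, so a low WT level is favoured. The separation of the libraries was likewise a condition of the choice and not a separate result. Epn3, which codes for epsin 3, an adaptor of endocytosis, was at 5.52, 6.52 and 14.7 CPM in dKO and at 0.0367, 0.0423 and 0.0606 CPM in WT. All dKO libraries stood far above all WT libraries, with a fold change of 7.47 on the log2 scale (SE 0.40, adjusted p 1.54e-10). Sgk2, a serum- and glucocorticoid-regulated kinase, was at 4.13, 5.07 and 13.5 CPM in dKO and at 0.0184, 0.0396 and 0.119 CPM in WT. Its groups were as clearly apart, with a log2 fold change of 7.11 (SE 0.55). Kcnh6, a voltage-gated potassium channel, had 598 counts over the 6 dKO libraries and 3 over the 6 WT libraries, all 3 in replicate 3. The ratio was 224, with a 95% counting interval of 76.2 to 1090 that leaves out the spread between libraries. The fitted log2 fold change of Kcnh6 was 7.57 (SE 0.79). Sptlc3, a subunit of serine palmitoyltransferase, which starts sphingolipid synthesis, rose by a log2 fold change of 7.10 (SE 0.66). Tacr2, the receptor of neurokinin A, rose by 6.41 (SE 0.72), Dnah11, a dynein heavy chain of cilia, by 5.94 (SE 0.69), and Fam131c by 5.92 (SE 0.78; 6.77 without WT replicate 1), all on the log2 scale. Without the lymphocyte-high libraries, which leaves 2 WT libraries, Sgk2 differed by 7.87 and Dnah11, with 0 and 1 count in those WT libraries, by a fitted 8.19. Bmp8b, a secreted factor of brown fat, was at 8.92, 14.7 and 25.1 CPM in dKO and at 0.0184, 0.17 and 0.597 CPM in WT, a log2 fold change of 6.07 (SE 0.62; 6.71 without WT replicate 1). Bmp8b has a close paralogue, Bmp8a, and reads may have been split between both.

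Under the same filter the largest falls were smaller in size. That they concerned genes expressed in WT fat follows from the filter, since the mean of a gene that fell rests mostly on WT. Fgf21, which lies below that mean, had a log2 fold change of -3.23. Nnat, a membrane protein gene active in white fat and brain, was at 12.4, 14.3 and 18.0 CPM in dKO and at 50.7, 122 and 165 CPM in WT. No dKO library reached the lowest WT library, and the log2 fold change was -2.95 (SE 0.44, adjusted p 2.41e-05). Podn, a small leucine-rich proteoglycan of the matrix, was at 14.0, 15.4 and 20.5 CPM in dKO and at 56.5, 99.3 and 151 CPM in WT (log2 fold change -2.66, SE 0.32). Vat1l was at 2.67, 4.04 and 5.03 CPM in dKO and at 13.3, 23.8 and 31.9 CPM in WT (log2 fold change -2.50, SE 0.26). In both cases the highest dKO library lay well under the lowest WT library. Gnal, a G protein alpha subunit that stimulates adenylyl cyclase, fell by 2.84 on the log2 scale (SE 0.37), and by 3.80 without the lymphocyte-high libraries. Prtn3, the neutrophil protease proteinase 3, fell by 2.82 (SE 0.48), Chrna5, a nicotinic acetylcholine receptor subunit, by 2.66 (SE 0.37), Cyp2f2, a cytochrome P450, by 2.41 (SE 0.43) and Plppr3 by 2.39 (SE 0.41). For all of these the dKO and WT libraries did not overlap, which is how they were chosen. Plppr3 and Prtn3 lie close to Cfd, a white adipocyte gene given below, on chromosome 10 (79860475 to 79892655). The WT medians were 12.1 CPM for Plppr3, 10.2 CPM for Prtn3 and 8960 CPM for Cfd, which fell as well (-2.23). Whether the falls of Plppr3 and Prtn3 are separate from that of Cfd was not tested.

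**Figure D2:**
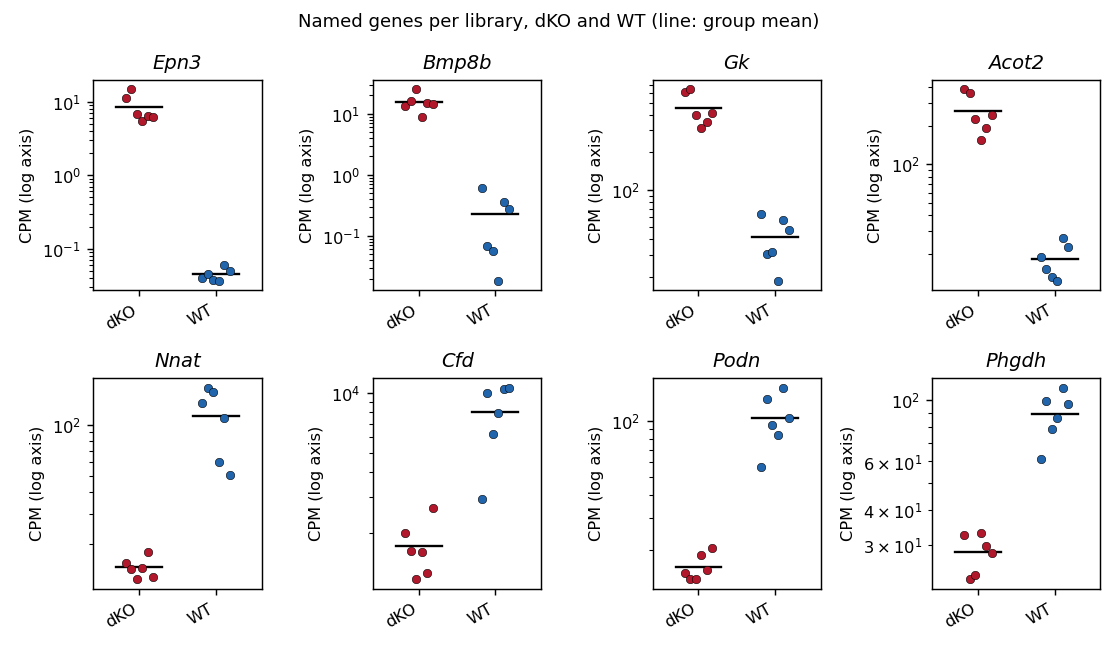
CPM of 8 genes in each dKO and WT library on log axes, with a line at the mean of each group. Epn3 and Bmp8b lie under 1 CPM in every WT library and above 5 CPM in every dKO library, and Nnat, Cfd, Podn and Phgdh lie lower in every dKO library than in any WT library.

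Genes of brown and beige fat rose as a group. Of 29 tested, 20 rose and 1 fell, and the list's median log2 fold change was 2.02. Elovl3, a fatty acid elongase of brown fat, was at 777, 1120 and 1460 CPM in dKO and at 10.9, 51.9 and 107 CPM in WT, a log2 fold change of 4.36 (SE 0.60). Dio2, the deiodinase that activates thyroid hormone, was at 170, 212 and 423 CPM in dKO and at 7.09, 17.6 and 22.6 CPM in WT (3.97, SE 0.37). Both genes were higher in every dKO library than in any WT library. Kcnk3, a potassium channel of brown adipocytes, was at 222, 345 and 427 CPM in dKO and at 44.1, 51.4 and 116 CPM in WT (2.39, SE 0.22). Fabp3 (log2 fold change 4.51), which binds fatty acids in oxidative tissues, Slc27a2 (4.12), a fatty acid transporter and acyl-CoA synthetase, and Cidea (2.85), a lipid droplet protein of brown fat, also rose without overlap. The 8 members that did not pass were Ucp1, Prdm16, Ebf2, Adrb3, Tmem26, Tbx1, Tnfrsf9 and Slc29a1. Prdm16 and Ebf2, transcription factors that set brown identity, had log2 fold changes of 0.04 (95% interval -0.38 to 0.46) and -0.04 (-0.42 to 0.34). The member that fell was Lhx8, a homeobox gene of classical brown fat, at 0.992, 1.49 and 2.07 CPM in dKO and 1.99, 2.54 and 3.32 CPM in WT. Its groups overlapped, and the call (log2 fold change -0.75, adjusted p 0.0243) was lost without the lymphocyte-high libraries (adjusted p 0.0891), without the muscle-high libraries (adjusted p 0.0538) and without WT replicate 2 or dKO replicate 2 or 6. The count of 20 rises was the same with and without either set of libraries.

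The regulators of mitochondrial genes moved the same way, with Ppargc1a, Ppargc1b, Esrra and Esrrg counted in this list and in that of brown and beige fat. Of 18 tested, 14 rose and 0 fell (median log2 fold change 0.73), and 1 fell without WT replicate 6 or dKO replicate 5. Ppargc1a, the coactivator PGC-1 alpha that drives mitochondrial biogenesis, was at 46.1, 54 and 88 CPM in dKO and at 13.0, 15.7 and 22.8 CPM in WT (log2 fold change 1.82, SE 0.20, adjusted p 9.29e-07). Gabpa, a transcription factor of respiratory chain genes, was at 82.6, 101 and 129 CPM in dKO and at 42.3, 47.1 and 56.2 CPM in WT (1.10, SE 0.11). Neither gene's groups overlapped. Esrrg (2.02) and Esrra (1.27), the estrogen-related receptors that act with PGC-1 alpha, and Tfb2m (1.03), a factor of mitochondrial transcription, rose as well.

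Most of the listed mitochondrial genes were higher in dKO. Of 57 nuclear-encoded subunits of the respiratory chain and ATP synthase, 52 rose and 2 fell (median log2 fold change 1.12). In 47 of them the groups did not overlap, beside 18.6% of all genes tested. Cycs, cytochrome c, was at 442, 604 and 803 CPM in dKO and at 133, 168 and 250 CPM in WT (1.74, SE 0.19). Uqcrc2, a core subunit of complex III, was at 1110, 1410 and 1830 CPM in dKO and at 362, 490 and 641 CPM in WT (1.53, SE 0.16). The largest rise in the list was of Cox7a1 (2.94, SE 0.42), the muscle and brown fat form of a cytochrome oxidase subunit, and each complex had members among the rises. Both members that fell belong to ATP synthase. Atp5g1, which codes for its membrane c subunit, was at 12.1, 15.2 and 20.4 CPM in dKO and at 22.2, 34.2 and 48.0 CPM in WT (-1.12, SE 0.28, adjusted p 0.00328). Atp5j, a subunit of the stalk, changed by -0.48 on the log2 scale (SE 0.15, adjusted p 0.0153) with overlapping groups. The c subunit is encoded by Atp5g1, Atp5g2 and Atp5g3, whose coding parts are alike, so reads may have been split, and the fall of Atp5g1 missed the threshold without the lymphocyte-high libraries (-1.21, adjusted p 0.0544). Atp5g2 rose by 0.46 on the log2 scale. Atp5g3 did not pass (-0.37, adjusted p 0.111), but did without the lymphocyte-high libraries (-0.38, adjusted p 0.0133).

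The enzymes that feed the chain rose likewise. Of 21 genes of the citric acid cycle and pyruvate dehydrogenase, 19 rose and 0 fell (median 1.34). Idh3a, the catalytic subunit of isocitrate dehydrogenase, was at 1300, 1690 and 2240 CPM in dKO and at 314, 457 and 633 CPM in WT (1.90, SE 0.19). Sucla2, a subunit of succinyl-CoA ligase, was at 1120, 1460 and 2110 CPM in dKO and at 236, 388 and 475 CPM in WT (2.12, SE 0.21). Pdk4, the kinase that shuts pyruvate dehydrogenase, rose by 2.59 on the log2 scale (SE 0.32). Of 22 genes of mitochondrial fatty acid uptake and beta-oxidation, 21 rose and 0 fell (median 1.54). Acot2, a mitochondrial acyl-CoA thioesterase, was at 155, 236 and 386 CPM in dKO and at 12.3, 17.1 and 26.7 CPM in WT (3.85, SE 0.26, adjusted p 2.71e-09). Slc25a20, the carnitine-acylcarnitine carrier, was at 544, 725 and 1080 CPM in dKO and at 114, 169 and 258 CPM in WT (2.13, SE 0.22). All dKO libraries were above all WT libraries in both genes. The forms of carnitine palmitoyltransferase 1, the gate of fatty acid entry, differed, since Cpt1b, the muscle and brown fat form, rose by 3.10 (SE 0.42) and Cpt1a, the liver form, did not pass (-0.13, SE 0.16). Of 18 mitochondrial chaperones and proteases, 16 rose and 0 fell (median 0.99). Lonp1, a matrix protease, was at 361, 540 and 652 CPM in dKO and at 119, 147 and 206 CPM in WT (1.74, SE 0.17). Afg3l2, a protease of the inner membrane, rose by 1.45 on the log2 scale (SE 0.14).

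**Figure D3:**
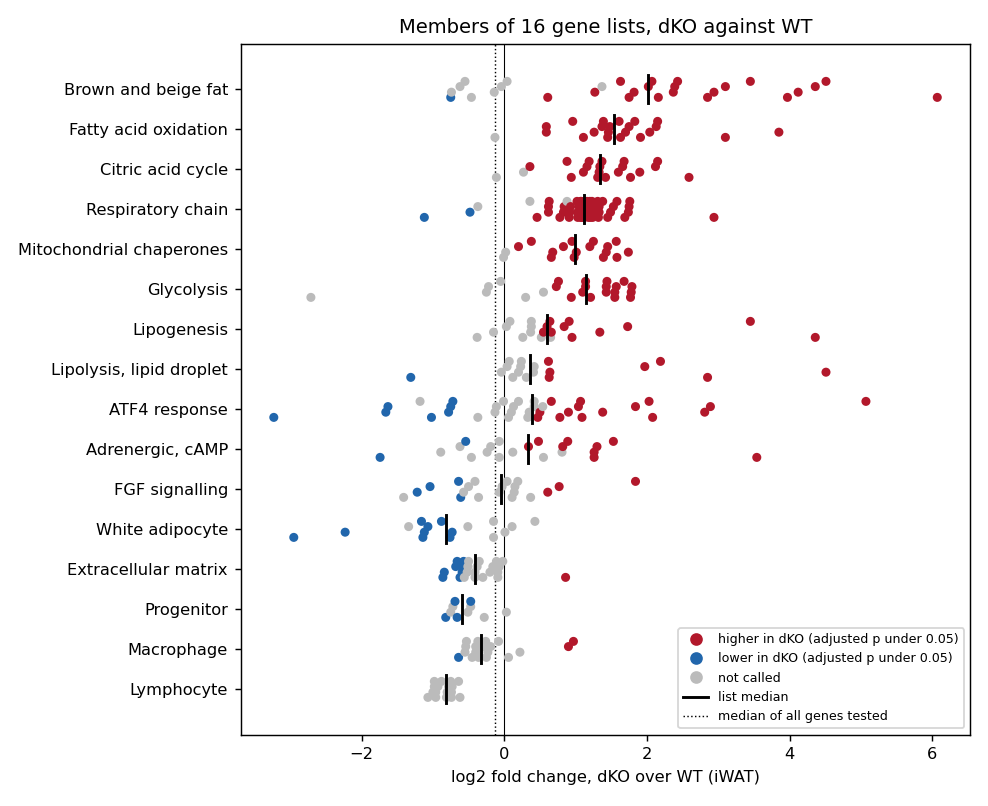
Log2 fold changes of dKO over WT for the tested members of 16 gene lists, with red points for genes higher and blue points for genes lower in dKO at an adjusted p under 0.05, grey points for the others, a bar at each list's median and a dotted line at the median of all genes (-0.13). The medians of brown and beige fat, fatty acid oxidation, citric acid cycle and respiratory chain genes lie between 1.12 and 2.02, and those of white adipocyte, progenitor and matrix genes below -0.13.

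Genes of glucose use and fat synthesis changed in part. Of 23 genes of glucose uptake and glycolysis, 17 rose and 0 fell (median 1.14). Pgam1, phosphoglycerate mutase, was at 244, 338 and 394 CPM in dKO and at 64.7, 88.3 and 129 CPM in WT (1.79, SE 0.17). Hk1, hexokinase 1, was at 72.3, 80.7 and 94.2 CPM in dKO and at 25.9, 27.8 and 45.5 CPM in WT (1.44, SE 0.14). Neither overlapped. Eno3, the muscle enolase, had a log2 fold change of -2.71 (SE 1.33) that did not pass, with 383 CPM in the highest WT library. Of 21 genes of fatty acid and triglyceride synthesis, 11 rose and 0 fell (median 0.60), and 7 rose without the muscle-high libraries. Gk, the glycerol kinase that lets fat cells re-use glycerol, was at 313, 407 and 642 CPM in dKO and at 18.6, 39.3 and 64.5 CPM in WT (3.45, SE 0.32). Besides Gk and Elovl3, the elongase Elovl6 (1.73, SE 0.27) and the acetyl-CoA carboxylase Acacb (1.34, SE 0.26) rose. Fasn, fatty acid synthase, was at 12700, 18900 and 22100 CPM in dKO and at 8580, 15700 and 27100 CPM in WT, and Scd1, stearoyl-CoA desaturase, at 25300, 41800 and 46400 CPM in dKO and at 18700, 35100 and 64900 CPM in WT. Their groups overlapped throughout, and neither difference passed.

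Lipid droplet coats moved in opposite directions. Of 18 genes of lipolysis, lipid uptake and droplet coats, 7 rose and 1 fell (median 0.36). Plin2, a droplet coat found in many tissues, was at 2040, 2790 and 3260 CPM in dKO and at 415, 571 and 1230 CPM in WT (1.97, SE 0.21). Plin4, a coat of white adipocytes, was at 666, 864 and 1130 CPM in dKO and at 1150, 2160 and 2790 CPM in WT (-1.31, SE 0.22). Neither gene's groups overlapped. Plin5, a coat of oxidative tissues that ties droplets to mitochondria, rose by 2.19 on the log2 scale (SE 0.27).

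Among heat-producing cycles proposed to act beside UCP1, changes were mixed. Of 9 genes of the glycerol phosphate shuttle and of other carriers, 7 rose and 0 fell (median 1.11). They included Gpd2, the mitochondrial glycerol phosphate dehydrogenase, at 740, 941 and 1130 CPM in dKO and 209, 320 and 455 CPM in WT (1.56, SE 0.18). Ucp3, a relative of UCP1, was at 170, 224 and 292 CPM in dKO and 56.6, 80.8 and 145 CPM in WT (1.29, SE 0.22). Pm20d1, a secreted enzyme that makes N-acyl amino acids, rose by 1.11 on the log2 scale (SE 0.19). Of 7 creatine genes, 2 rose and 2 fell (28.6% each, beside 19% and 18% of all genes). Of these genes 1 rose without WT replicate 1, dKO replicate 1, dKO replicate 2 or the muscle-high libraries. Alpl, the phosphatase proposed to act on phosphocreatine, was at 20.1, 25.9 and 35.6 CPM in dKO and at 4.04, 7.12 and 9.33 CPM in WT (1.98, SE 0.23). Both enzymes of creatine synthesis fell. Gamt was at 3.95, 4.76 and 5.78 CPM in dKO and at 6.57, 10.3 and 13.7 CPM in WT (-1.06, SE 0.23), and Gatm changed by -0.88 (SE 0.23). Ckb, the brain creatine kinase, rose by 0.72 (SE 0.26, adjusted p 0.0357) with overlapping groups, and did not pass without the muscle-high libraries, WT replicate 1 or dKO replicate 1 or 2 (adjusted p up to 0.148). Of 11 calcium pumps and release channels, 5 rose (45.5%, beside 19% of all genes) and 1 fell (9.09%, beside 18%). Atp2a2, the calcium pump SERCA2, was at 298, 360 and 412 CPM in dKO and at 161, 190 and 229 CPM in WT (0.88, SE 0.10). Itpr2 (1.26, SE 0.20) and Ryr2 (1.18, SE 0.34), both release channels, rose, but Ryr2 did not pass without the muscle-high libraries (0.93, adjusted p 0.0871). Pln, phospholamban, which restrains SERCA2, was at 0.23, 0.583 and 0.666 CPM in dKO and at 0.663, 1.18 and 1.80 CPM in WT (-1.21, SE 0.33, adjusted p 0.00606). It was among the least abundant genes of the list, and its groups touched.

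Of 21 genes of adrenergic receptors and cAMP signalling, 9 rose and 2 fell (median 0.34), and 1 fell without the muscle-high libraries, WT replicate 1 or 3 or dKO replicate 1, 2, 3 or 6. Adcy3, an adenylyl cyclase, was at 375, 474 and 891 CPM in dKO and at 32.3, 45.7 and 64.4 CPM in WT (3.54, SE 0.27, adjusted p 1.25e-08). Adcy5, another cyclase, went the other way, at 28.0, 43.3 and 55.4 CPM in dKO and 64.3, 143 and 220 CPM in WT (-1.74, SE 0.26). Gnas, the G protein subunit that couples receptors to cyclases, was at 1800, 2290 and 3150 CPM in dKO and at 671, 790 and 1050 CPM in WT (1.53, SE 0.19). The groups did not overlap in any of these 3 genes. Among the receptors, Adrb1 rose (1.3, SE 0.23), and Adrb3, the main beta receptor of mouse fat cells, was at 187, 304 and 391 CPM in dKO and at 201, 420 and 577 CPM in WT, a difference that did not pass.

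Genes of the ATF4 stress response moved in both directions. Of 36 genes, 15 rose (41.7%) and 7 fell (19.4%, beside 18% of all genes), with a median of 0.39. Trib3, a pseudokinase induced by ATF4, was at 33.1, 50.7 and 62.6 CPM in dKO and at 4.14, 6.13 and 10.1 CPM in WT (2.89, SE 0.21, adjusted p 7.75e-09). Ddit3, the factor CHOP, was at 34.6, 51.7 and 63.5 CPM in dKO and at 12.6, 13.2 and 17.3 CPM in WT (1.84, SE 0.13). All dKO libraries lay above all WT libraries in both. Atf3 (2.81, SE 0.27), Atf5 (2.08, SE 0.19) and Cebpb (1.38, SE 0.25), further transcription factors of the response, rose with them, and Atf4 itself rose by 0.66. Mthfd2, a mitochondrial enzyme of one-carbon metabolism, was at 29.4, 35 and 52.2 CPM in dKO and at 5.64, 9.24 and 14.6 CPM in WT (2.03, SE 0.28). Psph, the last enzyme of serine synthesis, rose by 1.04 (SE 0.16). Phgdh, the first enzyme of the same pathway, was at 22.5, 28.8 and 33.0 CPM in dKO and at 61.3, 91.6 and 111 CPM in WT (-1.66, SE 0.21, adjusted p 2.83e-06). Stc2, a secreted glycoprotein (-1.63, SE 0.31), and Slc1a5, a glutamine carrier (-1.02, SE 0.21), fell too, and Fgf21, a knocked-out gene, is counted among the falls. Asns, asparagine synthetase, and Chac1, a glutathione-cleaving enzyme, often taken as readouts of ATF4, did not pass, with log2 fold changes of 0.42 (SE 0.23) and 0.35 (SE 0.62). Chac1 passed without the muscle-high libraries (1.10, adjusted p 0.0385).

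ATF4 binds, as a dimer with C/EBP factors, the composite element whose core letters are TGATGNAA. Promoters of 3 members of the list are shown because they hold the core, in RefSeq windows of 250 bases before to 50 after each start (GRCm38.p6). They belong to the genes named above as Trib3 and Atf3, which rose, and Fgf21, which is knocked out in dKO. Each is printed 5′ to 3′ on the strand of its gene, and the capitals mark the core, which in all 3 lies on the opposite strand.
Trib3, chr2:152344011-152344310, minus strand: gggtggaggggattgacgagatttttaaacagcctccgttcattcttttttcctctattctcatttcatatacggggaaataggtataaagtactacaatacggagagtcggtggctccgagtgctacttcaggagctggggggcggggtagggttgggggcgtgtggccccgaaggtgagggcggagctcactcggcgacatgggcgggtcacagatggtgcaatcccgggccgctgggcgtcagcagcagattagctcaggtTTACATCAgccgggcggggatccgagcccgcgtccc
Atf3, chr1:191183284-191183583, minus strand: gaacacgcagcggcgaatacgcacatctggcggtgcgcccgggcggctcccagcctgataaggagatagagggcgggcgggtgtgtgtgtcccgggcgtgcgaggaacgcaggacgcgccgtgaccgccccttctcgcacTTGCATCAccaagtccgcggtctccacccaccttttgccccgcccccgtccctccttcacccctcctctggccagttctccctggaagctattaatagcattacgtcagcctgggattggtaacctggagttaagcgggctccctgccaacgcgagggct
Fgf21, chr7:45615441-45615740, minus strand: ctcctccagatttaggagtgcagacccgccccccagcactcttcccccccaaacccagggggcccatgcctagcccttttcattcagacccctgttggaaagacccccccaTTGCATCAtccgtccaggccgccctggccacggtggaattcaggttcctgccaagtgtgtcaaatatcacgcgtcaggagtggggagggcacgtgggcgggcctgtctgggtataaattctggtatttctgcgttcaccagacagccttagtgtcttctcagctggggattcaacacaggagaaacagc
The core begins 14 bases after the start in Trib3 and at -110 in Atf3 and -139 in Fgf21, relative to the start. Searched on both strands, it was found in windows of 3 of the 13 risen members that have a window (Trib3, Atf3, Vldlr; 23.1%). It was found for 7 of the 17 other members with a window (41.2%) and for 1219 of 27025 genes with a window overall (4.51%), or 1304 of 32851 windows (3.97%). The match is a description of these windows and not a binding site.

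**Figure D4:**
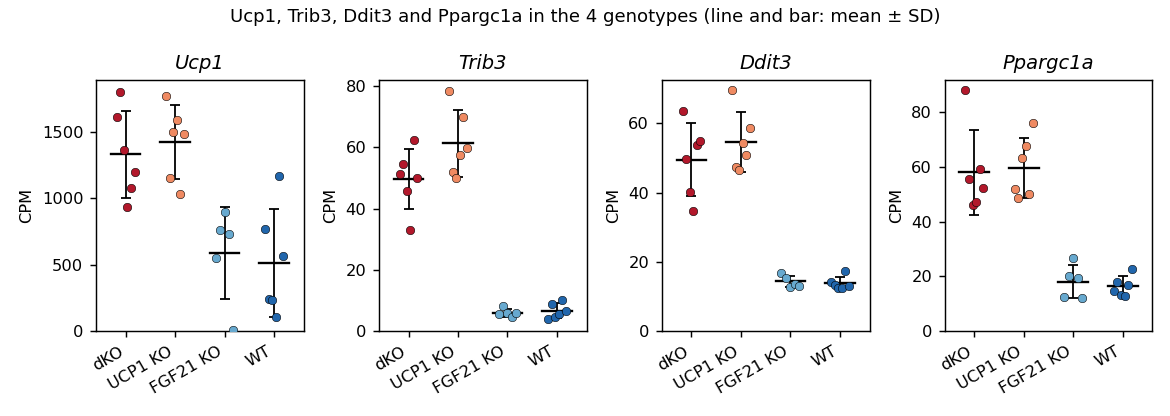
CPM of Ucp1, Trib3, Ddit3 and Ppargc1a in each iWAT library of the 4 genotypes, with bars for the mean ± SD. For Trib3, Ddit3 and Ppargc1a the dKO and UCP1 KO libraries lie above all WT libraries, while for Ucp1 reads the dKO range (937 to 1800 CPM) overlaps the WT range (104 to 1170 CPM).

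Chaperones and sensors of the endoplasmic reticulum did not move as a group. Of 21, 7 rose (33.3%, beside 19% of all genes) and 4 fell (19%, beside 18%), with a median of -0.09. Of these genes 2 fell without the lymphocyte-high libraries, WT replicate 1, WT replicate 3 or dKO replicate 2. Atf6, a sensor, was at 72.7, 75.0 and 81.5 CPM in dKO and at 42.3, 48.5 and 52.5 CPM in WT (0.66, SE 0.07). Xbp1, a transcription factor of the unfolded protein response, changed by -1.04 (SE 0.18). Pdia4, a disulfide isomerase, was at 42.4, 48.2 and 58.5 CPM in dKO and at 72.3, 79.2 and 81.7 CPM in WT (-0.68, SE 0.09).

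Of 18 secreted signals of fat, 4 rose (22.2%, beside 19% of all genes) and 6 fell (33.3%, beside 18%). Gdf15, a stress hormone that lowers food intake, was at 1.28, 2.43 and 5.90 CPM in dKO and at 0.0184, 0.0777 and 0.174 CPM in WT (5.07, SE 0.48, adjusted p 1.77e-07), and the difference was 3.88 without the lymphocyte-high libraries. Besides Gdf15 and Bmp8b, Fndc5, the precursor of irisin, rose by 3.60 (SE 0.58), and Angptl8 by 1.6. Inhbb, a subunit of activins, was at 6.26, 7.24 and 8.97 CPM in dKO and at 10.9, 22.1 and 27.1 CPM in WT (-1.43, SE 0.22). Igf1, a growth factor, changed by -1.47 (SE 0.25) and Bmp4, a factor of adipocyte commitment, by -1.15 (SE 0.23).

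Among 20 tested genes of FGF signalling, 3 rose and 4 fell (35% called, beside 37% of all genes; median -0.05). Fgf1, a local growth factor of adipose tissue, was at 43.7, 56.8 and 73.3 CPM in dKO and at 9.37, 16.8 and 20.7 CPM in WT (1.84, SE 0.19). Fgf2 was at 0.495, 0.758 and 1.17 CPM in dKO and at 1.38, 1.78 and 2.31 CPM in WT (-1.22, SE 0.23). Fgfr1, the receptor through which FGF21 acts in fat, changed by -1.04 (SE 0.20), and its co-receptor Klb by 0.37 (SE 0.19), which passed only when WT replicate 6 (0.56, adjusted p 0.0109) or FGF21 KO replicate 4 (0.41, adjusted p 0.044) was left out. Dusp4 (0.77, SE 0.19) and Dusp6 (0.61, SE 0.17), phosphatases that ERK induces and that act on it in return, rose.

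White adipocyte genes fell. Of 16 tested, 0 rose and 9 fell (median -0.82). Cfd, the complement factor adipsin, was at 1170, 1610 and 2640 CPM in dKO and at 2950, 8960 and 10600 CPM in WT (-2.23, SE 0.37). Lep, leptin, was at 58.2, 139 and 166 CPM in dKO and at 178, 223 and 515 CPM in WT (-1.16, SE 0.37). In both, every dKO library was below every WT library, but Lep did not pass without WT replicate 6 (-0.90, adjusted p 0.0557). Adipoq, adiponectin, was at 840, 1030 and 1310 CPM in dKO and at 886, 1730 and 2550 CPM in WT, with overlap (-0.73, SE 0.24, adjusted p 0.0197), and the call was lost without WT replicate 6 (-0.58, adjusted p 0.0564).

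Progenitor, matrix and nerve genes were lower in part. Of 10 markers of adipocyte progenitors and fibroblasts, 0 rose and 4 fell (40%, beside 18% of all genes), with a median of -0.59. Of these markers 2 fell when WT replicate 6, dKO replicate 1 or dKO replicate 2 was left out. Cd9, a tetraspanin, was at 10.0, 15.8 and 22 CPM in dKO and at 24.6, 27.8 and 29.2 CPM in WT (-0.82, SE 0.14). Of 25 matrix genes, 1 rose (4%, beside 19% of all genes) and 8 fell (32%, beside 18%), with a median of -0.41. The share called in either direction was 36%, beside 37% of all genes. Dcn, decorin, was at 305, 388 and 500 CPM in dKO and at 462, 711 and 1050 CPM in WT (-0.84, SE 0.21), and Mmp14, a membrane protease that cuts collagen, changed by -0.59 (SE 0.16). The count of matrix falls rested on single libraries. It was 3 without WT replicate 4 or 6 or dKO replicate 1, 2 or 3, and also without the muscle-high libraries, 4 without WT replicate 5 or dKO replicate 5, 5 without WT replicate 3, UCP1 KO replicate 1, 3 or 4 or FGF21 KO replicate 3, and 12 without the lymphocyte-high libraries. Postn, periostin, a matrix protein, rose (0.86, SE 0.22), and did not pass without the lymphocyte-high libraries (0.64, adjusted p 0.131). Of 8 nerve and Schwann cell markers, 1 rose (12.5%) and 3 fell (37.5%, beside 18% of all genes), and 0 fell without the lymphocyte-high libraries. Mbp, a myelin gene, fell (-0.60, SE 0.13). S100b, which adipocytes express as well, was at 44.4, 56.6 and 80.5 CPM in dKO and at 4.81, 10.9 and 29.1 CPM in WT (2.18, SE 0.35).

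Further metabolic groups were higher in part. Of 19 genes of branched-chain amino acid breakdown, 10 rose and 0 fell (median 0.53), and 1 fell without the lymphocyte-high libraries or WT replicate 1. Pcca, a subunit of propionyl-CoA carboxylase, was at 323, 420 and 470 CPM in dKO and at 141, 173 and 268 CPM in WT (1.09, SE 0.16). Hibch rose by 0.93 (SE 0.18). Of 20 genes of cholesterol synthesis, 8 rose and 0 fell (median 0.41), and 4 rose without the lymphocyte-high libraries, 4 without the muscle-high ones and 5 without WT replicate 2 or dKO replicate 6. Of these genes 1 fell without the lymphocyte-high libraries, WT replicate 1 or FGF21 KO replicate 4. Hsd17b7, a late enzyme of the pathway, rose by 1.25 (SE 0.16). Of 16 targets of NRF2, the factor of the antioxidant response, 9 rose and 0 fell (median 0.48). Of them 2 fell without the lymphocyte-high libraries, the muscle-high libraries, WT replicate 1 or FGF21 KO replicate 4, and 1 fell without dKO replicate 1 or FGF21 KO replicate 1. Srxn1, sulfiredoxin, was at 115, 166 and 201 CPM in dKO and at 29.7, 37.4 and 59.2 CPM in WT (1.97, SE 0.18). Txnrd1, thioredoxin reductase, rose by 0.70 (SE 0.11).

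Other lists held few calls. The share called was 11.8% of interferon-stimulated genes, 16.7% of cell division genes and 15% of macrophage genes, beside 37% of all genes. It was 9.09% of endothelial and 20% of epithelial genes. Of 16 clock genes, 3 rose and 2 fell (31.2% called, beside 37% of all genes), and 4 fell without WT replicate 1. Among them were Cry1 (1.24, SE 0.15) and Cry2 (-0.74, SE 0.18), both repressors of the clock. Of 17 interferon-stimulated genes, Rsad2 rose (1.02, SE 0.24) and Gbp2 fell (-0.51, SE 0.11), and 2 fell without WT replicate 4, dKO replicate 4 or 5 or FGF21 KO replicate 3. Of 18 cell division genes, Cdk1 and Tyms (0.50, SE 0.08) rose and Pcna fell (-0.29, SE 0.10). The fall of Pcna was lost without the muscle-high libraries (adjusted p 0.0874) and without WT replicate 1 or 3 or dKO replicate 1, 2 or 6 (adjusted p up to 0.128). Without the lymphocyte-high libraries 12 of the 18 rose, 4 rose without WT replicate 1, and 1 rose without WT replicate 2, 5 or 6 or dKO replicate 5. Summed over the list, cell division genes were at 82.7 to 153 CPM in dKO and 68.5 to 180 CPM in WT, and the lymphocyte mean differed between the libraries as given above. Of 20 macrophage genes, 2 rose, Lgals3 (0.90, SE 0.16) and Gpnmb (0.97, SE 0.30), and 1 fell, Ccr2 (-0.64, SE 0.21), the receptor of inflammatory monocytes. Gpnmb did not pass without the lymphocyte-high libraries (0.33, adjusted p 0.541) nor without the muscle-high ones (0.94, adjusted p 0.0536), which leaves 1 rise in both cases. Ccr2 did not pass without the lymphocyte-high libraries (adjusted p 0.0856) nor without the muscle-high ones (adjusted p 0.0855), nor without WT replicate 1 or 4 or dKO replicate 1 (adjusted p up to 0.0779), and 2 macrophage genes fell without WT replicate 2 or 3. By edgeR's quasi-likelihood test 0 of the 17 lymphocyte genes passed (0 at an unadjusted p under 0.05; median -0.81), and 1 fell without the lymphocyte-high libraries. Of the 14 skeletal muscle genes 0 passed (9 at an unadjusted p under 0.05; median -4.05), 1 rose without the muscle-high libraries and 2 fell without UCP1 KO replicate 2, and the level of these genes in WT replicates 3 and 4 is given above. Of 11 endothelial genes, 1 rose, Eng (0.38, SE 0.14, adjusted p 0.0412), and it did not pass without either set of libraries nor in 8 of the 23 fits that left out 1 library (WT 2 and 4, UCP1 KO 4 and 5, dKO 1, 2, 3 and 6; adjusted p up to 0.0962). In this list 1 gene fell without the lymphocyte-high libraries or FGF21 KO replicate 4. Of 5 epithelial genes tested, 1 was called, Wap, a milk protein gene. It had 60 counts over the 6 dKO libraries and 0 over the 6 WT libraries, at least 22.5-fold higher when 3 counts over the WT group are taken as the floor. The other epithelial genes (Krt19, Epcam, Cdh1, Cldn3) did not pass, although 1 fell without UCP1 KO replicate 2 or dKO replicate 3, and the summed epithelial level was 1.52 to 4.25 CPM in dKO and 1.82 to 3.48 CPM in WT.

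The same dKO libraries were set against UCP1 KO, which lacks UCP1 alone, to show what differed when FGF21 was missing as well. Only 6 of 16751 genes passed (0.0358%), all of them lower in dKO, 486 had an unadjusted p under 0.05 (2.9%), and 62 did not overlap between the groups (0.37%). With DESeq2 the count was 13, and with only dKO and UCP1 KO fitted it was 8. At an unadjusted p under 0.05, more than 2.9% of genes would be expected with no difference at all. The small count thus does not show that the groups are alike. Fgf21 itself had 0 to 4 counts in dKO and 302 to 1235 in UCP1 KO (log2 fold change -9.10, SE 0.52, adjusted p 6.17e-10). Hsd11b1, which regenerates active glucocorticoid inside cells, was at 54.7, 59.0 and 69.9 CPM in dKO and at 145, 164 and 234 CPM in UCP1 KO (-1.55, SE 0.20, adjusted p 0.00139). Dusp4 was at 27.0, 39.9 and 49.3 CPM in dKO and at 92.5, 102 and 112 CPM in UCP1 KO (-1.36, SE 0.19, adjusted p 0.00285). Neither gene's groups overlapped, and both were also called against WT, in opposite directions. WT libraries held 68.5, 157 and 217 CPM of Hsd11b1, which was lower in dKO (-1.36, SE 0.20), and 19.4, 22.3 and 30.4 CPM of Dusp4, which was higher in dKO.

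Spred1 and Spred2, inhibitors of the Ras and ERK pathway, were lower by less. Spred1 was at 27.3, 30.1 and 34.1 CPM in dKO and at 39.3, 41.4 and 46.2 CPM in UCP1 KO (-0.45, SE 0.08, adjusted p 0.0263). Spred2 was at 22.6, 24.3 and 28.2 CPM in dKO and at 28.4, 35.9 and 43.8 CPM in UCP1 KO (-0.57, SE 0.10, adjusted p 0.0396). Against WT neither passed, with log2 fold changes of -0.07 (SE 0.08) and 0.14 (SE 0.10). Both calls rested on the set of libraries, since Spred1 missed the threshold in 12 of the 23 fits that left out 1 library (WT 3, UCP1 KO 1, 3, 4, 5 and 6, dKO 1, 2, 5 and 6, and FGF21 KO 4 and 5; adjusted p up to 0.189). Spred2 missed it in 16 (WT 5 and 6, UCP1 KO 1, 3, 4, 5 and 6, dKO 1, 2, 4, 5 and 6, and FGF21 KO 1, 2, 3 and 5; adjusted p up to 0.261). The count of 6 genes was 3 without any 1 of UCP1 KO replicates 1, 3, 4, 5 and 6, dKO replicates 1, 5 and 6 and FGF21 KO replicate 5. Spry4 and Dusp6, further feedback genes of ERK, had log2 fold changes of -1.14 (SE 0.27) and -0.71 (SE 0.17) against UCP1 KO and did not pass (adjusted p 0.481 each). Gpr3, a receptor that raises cAMP without a ligand, was chosen after its values were seen, as the remaining gene that passed. It had 5, 5, 10, 4, 5 and 7 counts in dKO and 18 to 55 counts in UCP1 KO (-2.50, SE 0.44, adjusted p 0.0396), and only 2 counts over all WT libraries. Gpr3 missed the threshold in 14 of the 23 fits that left out 1 library (UCP1 KO 1, 3, 4, 5 and 6, each dKO library, and FGF21 KO 1, 2 and 5; adjusted p up to 0.21). Spred1, Spred2 and Gpr3 also missed it without the lymphocyte-high libraries (adjusted p 0.242, 0.0769 and 0.241 in that order). Lcn2, lipocalin 2, was the gene closest to the threshold among those that missed it, also chosen after its values were seen, at 0.90, 1.64 and 3.17 CPM in dKO and 3.70, 5.28 and 9.56 CPM in UCP1 KO (-1.80, SE 0.35, adjusted p 0.0822). It passed without the muscle-high libraries (-1.90, adjusted p 0.00885), without WT replicate 3 or dKO replicate 2, and with DESeq2.

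**Figure D5:**
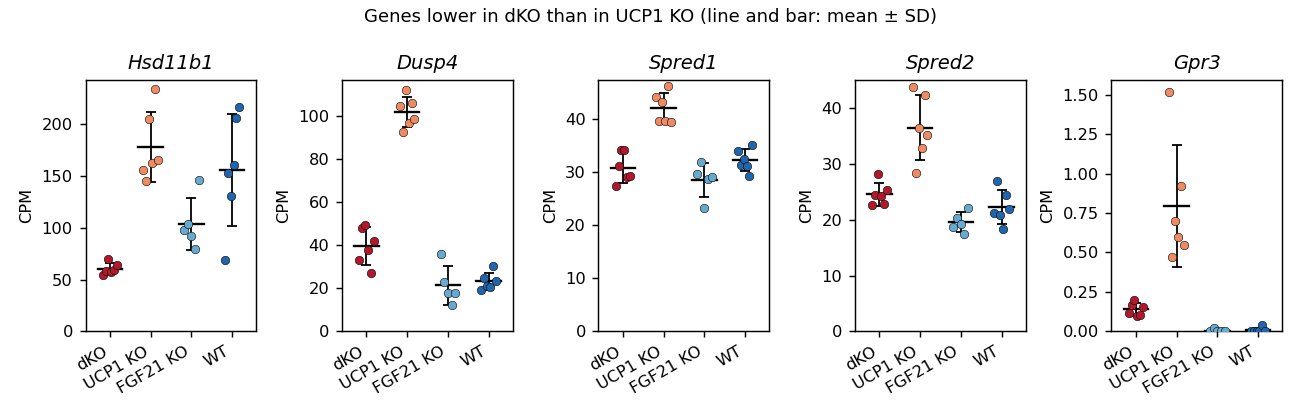
CPM of the 5 genes other than Fgf21 that were lower in dKO than in UCP1 KO, in each iWAT library of the 4 genotypes, with bars for the mean ± SD. For Dusp4 the dKO libraries (27.0 to 49.3 CPM) lie below those of UCP1 KO (92.5 to 112 CPM) and mostly above those of WT (19.4 to 30.4 CPM), and for Hsd11b1 they lie at 54.7 to 69.9 CPM, below the other genotypes except the lowest WT library (68.5 CPM).

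Of the 33 lists described above, only the ATF4 list (Fgf21) and the FGF list (Dusp4, Spred1 and Spred2) held genes that passed between dKO and UCP1 KO. List medians were -0.03 for brown and beige fat genes, -0.07 for fatty acid oxidation, -0.09 for subunits of the respiratory chain, -0.13 for citric acid cycle enzymes and -0.05 for white adipocyte genes. The FGF list had a median of -0.31, with 6 of 20 genes not overlapping (beside 0.37% of all genes) and 7 at an unadjusted p under 0.05 (beside 2.9%). The lists were chosen with earlier results of these data known, so these shares are a description and not independent support. Lists with larger medians and 0 genes that passed were those of skeletal muscle (-3.57), lymphocytes (0.73), progenitors (0.37) and epithelium (0.36). Of the genes in these lists 0 had an unadjusted p under 0.05 by edgeR's quasi-likelihood test. The macrophage list, with a median of 0.31, also held 0 genes that passed. For single genes the fit bounds the difference, more tightly for some than for others. The 95% interval of the log2 fold change of dKO over UCP1 KO was -0.61 to 0.76 for Dio2, -0.95 to 0.45 for Cidea, -0.62 to 0.64 for Pdk4 and -0.59 to 0.43 for Atf3. It was wider for genes such as Ucp1 (-1.38 to 1.19), Elovl3 (-1.36 to 0.80), Fam131c (-1.19 to 1.36) and Sptlc3 (-1.55 to 0.43). For these 4 genes the interval includes differences of over 2-fold. Both comparisons use the same dKO libraries and are not independent of each other.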

How the data were processed

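Poly(A) RNA was made into stranded libraries and sequenced as paired 100 bp reads, per the labels' protocols. Reads were aligned with STAR to mm10 and counted per gene with HTSeq, per the submitters' processing notes (versions not given in the sources used here). What the authors deposited is 1 file of raw gene counts a library. Of 32765 rows a library, 66 repeated names were summed and 2 rows naming no single gene (at most 0.22% of counts) were left out. Rows with an accession as name (8427) took 13.6% to 21.5% of counts in dKO and 9.02% to 11.4% in WT, and were tested but not named, so a gene's reads may be divided between rows.

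For the 23 iWAT libraries edgeR 4.0.16 under R 4.3.3 was used with TMM scaling, filterByExpr on genotype, a robust quasi-likelihood F test, Benjamini-Hochberg adjustment over all 16751 genes and calls under 0.05. The standard error is the log2 fold change over the square root of F, and CPM use TMM library sizes. Replicates were numbered in deposit order. No 2 replicates agreed within counting error (chi-squared per degree of freedom 15.5 to 710 over 55 pairs). The coefficient of variation was 0.307 in dKO, 0.389 in WT, 0.324 in UCP1 KO and 0.518 in FGF21 KO. In the shared fit it was 0.388. The steps were tested on simulated counts with 200 changed genes, fewer than the 6192 called here between dKO and WT. That simulation held no lymphocyte or muscle differences between libraries, so it does not check the calls under them.

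Members and the 33 lists were chosen with earlier results of these data known. Some genes belong to more than 1 list, so the counts of different lists are not independent. Named were Ucp1, Fgf21, up to 8 genes a direction with the largest changes (5 against UCP1 KO; mean of at least 1 CPM, no overlap), and the 1 or, from 8 calls, 2 members of each list and direction with the smallest p; others given with values were chosen after their values were seen. Some genes that the rule names are not reported here. Alternatives were DESeq2 1.42.0, RLE size factors, other low-count filters, the compared groups alone, genes within 10 Mb of the targets left out, lymphocyte and muscle settings and each library left out. Figures were drawn with matplotlib 3.10.9.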

Additional observations from a re-analysis of the deposited data

Results flagged for a closer look

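In 162 groups of 6 libraries (the named genes in dKO and in WT), 5 had a library that stood apart from the other 5 by Dixon's criterion, and chance flags about 1 in 20 groups. Kcnh6 was at 0.0568 CPM in WT replicate 3, which is 3 counts, and at 0 in the other WT libraries. Cyp2f2 was at 108 CPM in dKO replicate 1 and at 32.4 to 56.5 CPM in the other dKO libraries. Hk1 was at 45.5 CPM in WT replicate 1, the WT library with the highest lymphocyte mean, and at 25.9 to 29.7 CPM in the others. Ddit3 was at 17.3 CPM in WT replicate 5 and at 12.6 to 14.1 CPM in the others. Ppargc1a was at 88.0 CPM in dKO replicate 1, the dKO library with the highest respiratory chain mean, and at 46.1 to 59.1 CPM in the others.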

How the results depend on the processing

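Between dKO and WT, higher and lower genes numbered 3622 and 2913 with DESeq2, 3462 and 2628 with RLE size factors, 3089 and 2744 with no low-count filter, 3104 and 2615 without the lymphocyte-high libraries and 2667 and 2573 without the muscle-high libraries. With the lymphocyte-high libraries alone 2144 rose and 1473 fell (3617 in all). With the lymphocyte mean as a covariate 3607 rose and 4241 fell (7848 in all), so that falls outnumbered rises. In that fit 12 cell division genes rose, and 13 matrix, 5 adrenergic and cAMP and 4 macrophage genes fell. Falls also outnumbered rises with the compared groups alone (3068 higher, 3393 lower) and with a mean of at least 1 CPM (2851 higher, 2874 lower). Leaving out 1 library gave 5108 to 6753 calls. Of the 6192 genes called, 4577 (73.9%) were called in the same direction without the lymphocyte-high libraries, in a fit with 3 dKO and 2 WT libraries. Between dKO and UCP1 KO the count of 6 was 13 with DESeq2, 8 with only these groups fitted and 3 with no low-count filter. It was 1 with the lymphocyte-high libraries alone and 3 to 6 when 1 library was left out, and the cause was not tested. No gene named by the rule turned its direction in an alternative where it was called in that fit or in the main fit. The check did not cover differences called in neither fit, nor genes chosen after their values were seen. No paired analysis was possible because the labels carry no replicate numbers. The settings based on lymphocyte and muscle genes, other than leaving out the lymphocyte-high libraries and the lymphocyte covariate, were chosen after seeing the data. Genes at a few counts per library, such as Fgf21, Gpr3 and Wap, are limited by depth, and the intervals on counts cover counting error only.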
